A study of Mus musculus with 2 samples.

Results

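Potassium channel genes were described in chromatin accessibility data of sorted mouse embryonic cells. Members were all protein-coding genes of the GRCm38.p6 gene table, the assembly behind mm10, whose symbol starts with Kcn. There were 94 such genes among 21887 protein-coding genes on the chromosomes. The symbols cover pore-forming subunits and their auxiliary subunits. Kcne1l is the symbol that this table gives to the gene also known as Kcne5.

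The study profiled 1 group by ATAC-seq, in which the Tn5 transposase cuts and tags accessible DNA. Cells positive for GFP were sorted by FACS at embryonic day 10.5 from C57/Bl6 embryos that carry the Hb9::GFP reporter, and the labels name them spinal motor neurons. The reporter uses the promoter of Hb9 (now Mnx1), which encodes a homeodomain factor of motor neurons, so any other cell in which the reporter is active would also be sorted. The 2 replicates were pooled by the authors into 1 list of 138387 summit entries, of which 137849 lie on the chromosomes. No value below therefore has a replicate error and no test of a difference was possible. Whether the replicates are separate litters is not stated. Of 7 motor neuron markers, 6 had an entry within 1 kb of a gene end, the exception being Isl2. All 5 general neuronal markers had one. Over all protein-coding genes 63.4% had one, so such an entry is common and does not by itself mark a cell type. Gene-end entries were also present for 4 of 4 muscle markers, 2 of 4 endothelial markers, 1 of 4 markers of mature glia (Mbp) and 1 of 5 blood and microglia markers (Spi1). The part of other cells in the values below was not tested. In a sorted population, a site open in fewer cells and a site less open in each cell cannot be told apart.

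Potassium channels let potassium ions leave or enter a cell and so set its resting potential, shape its action potentials and limit its firing rate. Voltage-gated, calcium-activated, inwardly rectifying and tandem-pore leak channels differ in what opens them, and auxiliary subunits change their gating or their transport to the membrane. Motor neurons rely on these channels for repolarisation, for the afterhyperpolarisation that paces firing and for the background leak that neuromodulators reduce. Accessibility of a gene's chromatin does not measure its transcription, and no RNA was analysed here.

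An entry is 1 summit with its interval, and its fold is the authors' ratio of reads at the summit to the local background. Reads at the summit were recovered from the deposited fold and significance. The smallest entry held 11 reads, the median entry 24 and the genome-wide background was 5.37 reads, so a gene without an entry lies below the limit of this list and is not shown to be closed. A gene received an entry when the summit lay inside its span, or within 100 kb when 1 of its ends was the nearest protein-coding gene end. A gene-end entry is an assigned entry whose summit lies within 1 kb of either end of the span.

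The promoters below are shown because they carry the 3 highest summits found in the promoter windows of member genes (Kcnt2, Kcnj10 and Kcnj2), a weak one in the neighbouring gene of Kcnj10 (Kcnj9), and a gene of the same family with no entry at all (Kcnj13, added after its values were seen). Each is the 250 bases before a transcription start listed by RefSeq on GRCm38.p6, read 5′ to 3′ in the direction of transcription. Capitals mark CG dinucleotides.
Kcnt2 (chr1:140245468-140245717, plus strand): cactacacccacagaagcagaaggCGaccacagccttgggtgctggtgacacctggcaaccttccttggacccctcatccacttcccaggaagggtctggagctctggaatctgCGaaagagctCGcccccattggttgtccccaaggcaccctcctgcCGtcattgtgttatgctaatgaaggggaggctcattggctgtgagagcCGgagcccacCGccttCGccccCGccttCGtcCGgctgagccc
Kcnj10 (chr1:172340960-172341209, plus strand): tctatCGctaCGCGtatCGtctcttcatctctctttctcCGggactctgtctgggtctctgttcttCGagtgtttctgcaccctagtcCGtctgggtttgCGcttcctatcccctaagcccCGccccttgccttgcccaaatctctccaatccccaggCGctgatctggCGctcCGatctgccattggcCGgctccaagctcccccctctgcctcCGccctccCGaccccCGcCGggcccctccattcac
Kcnj2 (chr11:111065914-111066163, plus strand): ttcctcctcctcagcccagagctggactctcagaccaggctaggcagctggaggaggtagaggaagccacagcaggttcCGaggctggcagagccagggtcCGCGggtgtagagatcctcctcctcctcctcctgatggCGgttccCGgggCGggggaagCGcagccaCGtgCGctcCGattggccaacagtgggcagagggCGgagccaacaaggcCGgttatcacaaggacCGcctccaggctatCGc
Kcnj9 (chr1:172329323-172329572, minus strand): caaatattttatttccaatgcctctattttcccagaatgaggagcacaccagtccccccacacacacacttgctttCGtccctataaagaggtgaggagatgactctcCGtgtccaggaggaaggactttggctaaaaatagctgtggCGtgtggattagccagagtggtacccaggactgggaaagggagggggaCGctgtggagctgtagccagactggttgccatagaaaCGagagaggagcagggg
Kcnj13 (chr1:87394730-87394979, minus strand): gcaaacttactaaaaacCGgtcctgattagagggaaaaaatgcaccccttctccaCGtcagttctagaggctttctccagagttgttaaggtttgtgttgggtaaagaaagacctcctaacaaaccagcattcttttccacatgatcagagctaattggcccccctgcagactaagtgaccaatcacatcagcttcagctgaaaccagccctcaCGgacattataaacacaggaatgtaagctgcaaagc
The Kcnt2 window had its summit 53 bases before the start (offset -53), at 17.1-fold and 308 reads, with an exact 95% Poisson interval of 275 to 344 reads that covers counting error only. The Kcnj10 summit lay at offset -67 with 11.5-fold and 140 reads, and the Kcnj2 summit at offset -92 with 11.4-fold and 196 reads. In Kcnj9 the summit at offset -34 reached 3.21-fold and 34 reads. These 250 bases hold 10 CG dinucleotides in Kcnt2, 17 in Kcnj10, 14 in Kcnj2, 5 in Kcnj9 and 3 in Kcnj13.

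Almost every potassium channel gene had accessible chromatin assigned to it. At least 1 entry was found for 92 of 94 members (97.9%), beside 83.0% of all protein-coding genes, without regard to length. The exceptions were Kcnj13, an inward rectifier known from epithelia, and Kcnu1, the channel of sperm. Kcnu1 has a territory (the bases that the rule would give to the gene) of 93.0 kb, and Kcnj13 one of 67.0 kb. In 90 members at least 1 entry had a q-value under 0.05, beside 81.0% of all genes. A gene-end entry was present in 70 members (74.5%), beside 63.4% of all genes. In 68 of these, at least 1 gene-end entry was not within 1 kb of another gene's end. The gene-end entries of Kcnab2 also lie at the end of Nphp4, and those of Kcnh6 at the end of Ace3, and cannot be assigned to either gene alone.

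Members are longer than most genes, with a median length of 32.7 kb beside 17.2 kb, and the gene-end share rises with length in the whole genome. Genes were therefore placed in 4 equal classes of length, with upper bounds of 5.67, 17.17 and 44.34 kb for the first classes. Among members, the share with a gene-end entry was 70.0% (7 of 10) in the shortest class, beside 39.2% of all genes of that class. It was 61.9% (13 of 21) beside 65.6% in the next class, 70.8% (17 of 24) beside 70.3%, and 84.6% (33 of 39) beside 78.4% in the longest. The largest difference from all genes was thus in the shortest class, which holds only 10 members. The other classes lay nearer to the share of all genes. The 7 short members with a gene-end entry include Kcna3, Kcna5, Kcnf1 and Kcne1l. The share of all genes with at least 1 entry anywhere also rose with length. From the shortest class to the longest it was 58.6%, 84.3%, 91.3% and 97.9%. Among members it was 100%, 95.2%, 100% and 97.4%, so in the longest class members did not exceed all genes.

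Gene-end entries of members were lower than those of other genes. The median over members of the highest gene-end entry was 6.26-fold and 64 reads, beside 7.99-fold and 93 reads over all 13872 genes with such an entry. The local background was also lower, at 8.57 reads beside 10.6. Of the 70 members, 23 (32.9%) exceeded the median of all genes, as 6936 of the 13872 genes do. The difference had the same direction in all 4 length classes, with member medians of 5.05, 5.17, 6.22 and 7.88-fold beside 6.13, 7.48, 8.63 and 8.72-fold. The range among members ran from 2.13-fold at Kcng4 to 17.1-fold at Kcnt2.

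**Figure D1:**
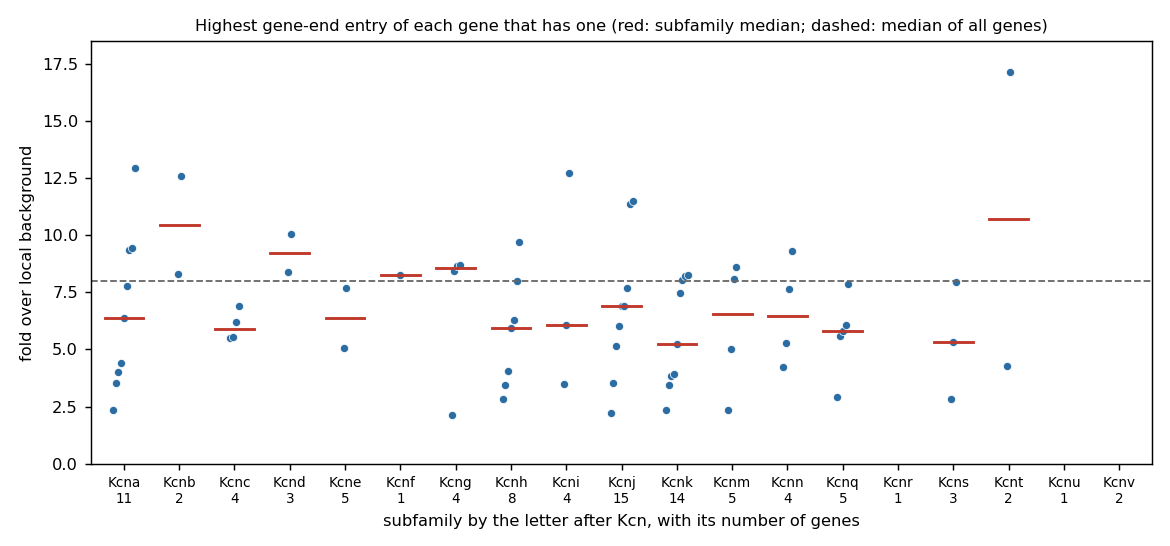
Highest gene-end entry of each potassium channel gene that has one (y axis, fold over local background), by the letter after Kcn (x axis, with the number of genes under each letter). Points are genes, red bars subfamily medians and the dashed line the median of all protein-coding genes, 7.99-fold, above which 23 of the 70 points lie.

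Members together held 906 gene-entry pairs, formed by 899 different entries in 678 intervals, since 7 entries inside Kcnip1 also belong to Kcnmb1. The median member had 7 entries, beside 3 over all genes, without regard to length. From the shortest class of length to the longest, the median was 3, 4, 5.5 and 14 in members, beside 1, 2, 3 and 9 over all genes. There were 38 members with 10 or more entries, 33 with 4 to 9 and 21 with 1 to 3. Kcnip4, which binds the channels of the Kcnd family and spans 1136 kb, held most (43), followed by Kcnq1 (34), Kcnd3 (27), Kcnip1 (27), Kcnh7 (25) and Kcnk10 (25). With 1 entry per interval, Kcnip4 had 37, Kcnip1 24, Kcnq1 22, Kcnma1 21, Kcnh7 20, Kcnd3 19 and Kcnk10 15, so the order below Kcnip4 depends on how summits of 1 interval are counted. The 23 members longer than 100 kb held 463 pairs (51.1%). Across members, Spearman's rho between length and entries was 0.67 (n = 94 genes), beside 0.58 over all 21887 genes. Between length and entries per 100 kb of territory it was -0.43, beside 0.048 over all genes. These are descriptions across genes, which are not independent and share 1 list.

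Per base, the family was close to the genome. Members had 5.30 entries per 100 kb when pooled, beside 6.19 for all genes, whereas the median member had 6.77 per 100 kb beside 6.003. Of 94 members, 57 (60.6%) lay above the median of all genes with a territory of similar size, a level that 10940 of the 21887 genes exceed. In the shortest class, 10 members had 8.42 entries per 100 kb beside 5.13 for all genes of that class. Of their 65 entries, 17 were of Kcna5, 14 of Kcnrg and 12 of Kcnf1, most of these outside the gene. The next classes had 6.65 beside 7.86 and 8.34 beside 6.63, and the longest had 4.56 beside 5.93. The difference from all genes thus had no single direction with length. Among territories of 20 kb or more, Kcnj10 was densest (29.97 per 100 kb), and Kcnip2 (20.8) and Kcnh2 (20.7) were among the next.

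**Figure D2:**
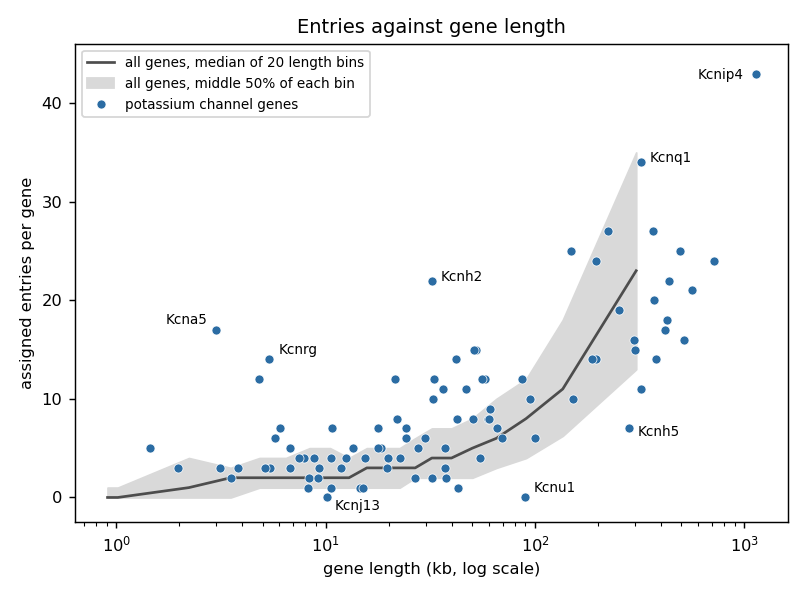
Assigned entries (y axis) against gene length in kb on a log axis (x axis) for the 94 potassium channel genes (blue points). The line and grey band give the median and the middle 50% of all protein-coding genes in length bins. Kcnip4 has 43 entries, Kcna5 17 and Kcnrg 14 although both are short, and Kcnj13 and Kcnu1 have none.

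Voltage-gated pore subunits of the Kcna to Kcnd families open on depolarisation and repolarise the membrane. Gene-end entries were present in 14 of the 17 (82.4%), beside 63.4% of all genes, with a median of 7.34-fold. The median gene had 8 entries. Kcna3, known from lymphocytes as well as neurons, had the highest gene-end entry of the group, 12.9-fold with 188 reads. Kcnb2 followed with 12.6-fold and 175 reads. The A-type channel genes Kcnd2 and Kcnd3, whose current delays firing, had 10.1-fold with 122 reads and 8.40-fold with 99 reads. The third gene of that family, Kcnd1, had 1 entry in all, 1453 bp outside the gene with 18 reads. Kcna1, an axonal channel, had 7.79-fold and 89 reads at its end. Its axonal partner Kcna2 had no gene-end entry, but 5 of its 7 entries lay inside the gene. The fast-spiking channel genes Kcnc1 to Kcnc4 all had gene-end entries, which ranged narrowly from 5.49 to 6.89-fold.

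Most Kcna genes sit in clusters on chromosomes 3 and 6, and their entries were unevenly shared out. On chromosome 3, Kcna3 had 3 entries, Kcna2 had 7 and Kcna10 had 4. The highest of Kcna10 was 12.2-fold with 99 reads, between genes and 6429 bp from its end. On chromosome 6, Kcna1 had 3 entries, Kcna6 had 10 and Kcna5 had 17. Kcna5 kept 3 of its entries when only summits inside the span were counted. It has a gene-end entry of 4.40-fold and 27 reads, but its highest entry, 5.95-fold and 42 reads, lay 54950 bp outside it. Assignment to the nearest end decides these counts, since neighbouring genes divide the space between them.

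Silent subunits of the Kcnf, Kcng, Kcns and Kcnv families form no channel alone and modify Kcnb channels. Of 10, 8 had a gene-end entry, beside 63.4% of all genes. From the shortest class of length to the longest, the share of all genes ran from 39.2% to 78.4%. The median of the silent subunits was 8.10-fold, the highest of the 8 functional groups but close to the 7.99-fold of all genes. Kcng3 reached 8.71-fold with 112 reads, Kcng1 8.66-fold with 82 reads, Kcng2 8.46-fold with 69 reads and Kcnf1 8.24-fold with 68 reads. Kcng4 was far lower, at 2.13-fold with 18 reads. Kcns3 had 7.96-fold and 74 reads. Kcnv1 and Kcnv2 had no gene-end entry. Kcnv1 had a 10.6-fold entry of 84 reads inside the gene, 1243 bp from its end, which lies just outside the window, and Kcnv2 had 1 entry of 17 reads.

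The EAG, ERG and ELK channels of the Kcnh family are voltage-gated and shape repolarisation and excitability. A gene-end entry was present in all but Kcnh1 (7 of 8, 87.5%), beside 63.4% of all genes. Every gene of this family is in the longest class of length or the one below it. In these, 78.4% and 70.3% of all genes have one, so the count is near the background. Kcnh1 carried the highest entry of all members, at 33.3-fold with 372 reads (95% interval 335 to 412). It lies inside the gene at chr1:192465997-192466621, 43821 bp from the nearer end. Kcnh1 also had an 11.1-fold summit of 95 reads 51 bases before a listed start (offset -51), which lies inside the span beyond the 1 kb window. Kcnh5 had the highest gene-end entry of the family, 9.71-fold with 97 reads, but 7 entries over a territory of 446 kb. Kcnh7 had 25 entries and 7.99-fold with 56 reads at its end. Kcnh2, which carries a repolarising current in the heart and in neurons, had 22 entries in a territory of 106 kb.

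All 5 KCNQ subunit genes had a gene-end entry. All 5 are in the longest class, where 78.4% of all genes have one, so this count is near the background. The median number of entries was 15, beside 14 for all members and 9 for all genes of that class. Kcnq3 contributes to the M-current, which restrains repetitive firing. Its gene-end entry had 7.88-fold with 75 reads, and it had a higher entry inside the gene, 11.2-fold with 125 reads. Kcnq5 had a low gene-end entry, 2.92-fold with 40 reads. Its highest entry, 22.0-fold with 139 reads (95% interval 117 to 164), lay between genes at chr1:21999318-21999869, 36967 bp from the gene. Kcnq1, known mainly from heart and inner ear, had 34 entries, of which the highest was 10.3-fold with 81 reads inside the gene. This entry is also the end entry of Kcnq1ot1, an imprinted non-coding RNA gene within Kcnq1, and cannot be assigned to either.

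**Figure D3:**
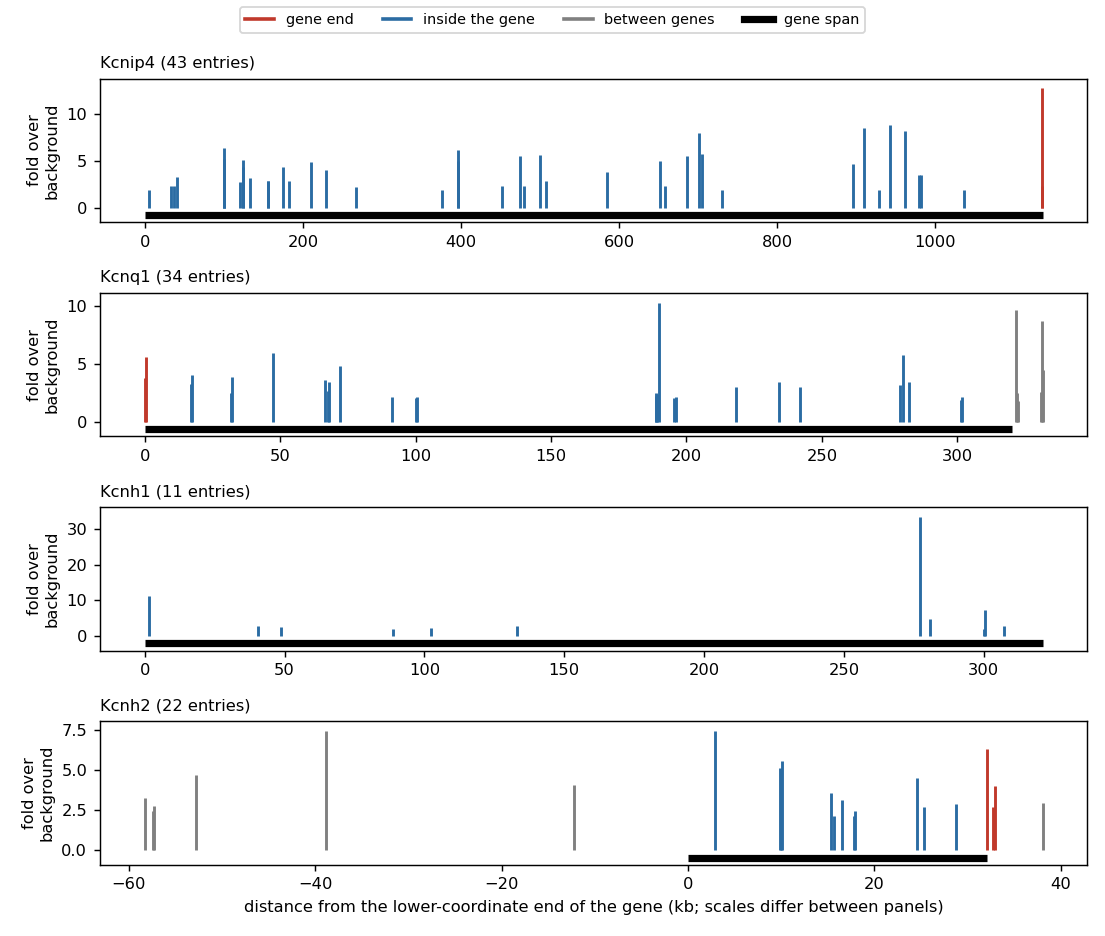
Entries of Kcnip4, Kcnq1, Kcnh1 and Kcnh2 by distance in kb from the lower-coordinate end of the gene (x axis, with a different scale in each panel) and fold over local background (y axis). The black bar is the gene span, and colours give the place of each summit. Kcnip4 has its highest entry at a gene end and Kcnh1 has a 33.3-fold entry inside the gene.

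Inward rectifiers of the Kcnj family hold the resting potential, and some are opened by G proteins or closed by ATP. A gene-end entry was present in 9 of 15, a share slightly below the 63.4% of all genes. The median number of entries was 4, the lowest of the functional groups. At gene ends, the family ran from no entry to 11.5-fold. Kcnj10, which is best known from glia, had 12 entries in a territory of 40.0 kb, with 140 reads at its end and 173 reads in another inside the gene. Kcnj2, a classical strong rectifier, had 4 entries and 196 reads at its end. Kcnj16, whose product joins that of Kcnj10, had no gene-end entry and 8 entries in all. Kcnj8 and Kcnj11, the pore subunits of ATP-sensitive channels, had 7.69-fold with 64 reads and 6.92-fold with 69 reads.

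The subunits of G-protein-gated channels differed in where their entries lay. Kcnj6 had 19 entries in all. Of these, 5 were gene-end entries, summits that share the intervals chr16:94743886-94744525 and chr16:94996952-94998047, the highest at 6.91-fold with 43 reads. Kcnj9 had 5.17-fold with 79 reads at its far end, an entry that also lies at the end of Igsf8 and cannot be assigned to either alone, and 3.21-fold with 34 reads at its start. Kcnj5 had 2.199-fold with 13 reads. Kcnj3 had none at its ends, but a 24.7-fold entry of 156 reads (95% interval 132 to 182) inside the gene at chr2:55492279-55492651, which is 80647 bp from the nearer end. Kcnj1, the kidney channel gene, had 2 entries, both outside the gene, Kcnj15 had 1 of 13 reads, 60951 bp away, and Kcnj14 had 1 of 20 reads.

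Tandem-pore leak channels of the Kcnk family set the background conductance and respond to pH, stretch, lipids and anaesthetics. Gene-end entries were present in 9 of 14 (64.3%), near the background, with a median of 5.23-fold. Kcnk3 and Kcnk9 form acid-sensitive leak channels of motor neurons. Kcnk3 had 3 entries and 8.04-fold with 66 reads at its end. Kcnk9 had 11 entries and 7.48-fold with 63 reads, and its highest entry, 12.1-fold with 76 reads, lay 72169 bp outside the gene. Kcnk12 had the highest gene-end entry of the family, 8.28-fold with 97 reads. Its 8 gene-end entries are summits that share the intervals chr17:87745296-87746895 and chr17:87796858-87798869. Kcnk5 had 8.21-fold with 95 reads. The mechanically gated Kcnk2 and its relative Kcnk10 had 24 and 25 entries but low gene-end folds, 2.36 and 3.43. Near listed starts inside the span, however, they had 8.46-fold with 73 reads and 7.77-fold with 106 reads. The 5 without a gene-end entry were Kcnk1, Kcnk7, Kcnk13, Kcnk16 and Kcnk18. Kcnk16, known from the pancreas, had 4 entries, all outside the gene.

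Calcium-activated and sodium-activated channels open when these ions rise during firing. The group counted here also holds Kcnu1, the channel of sperm, which was added by channel family. A gene-end entry was present in all but Kcnu1 (7 of 8, 87.5%), beside 63.4% of all genes, with a median of 7.63-fold. Most of the 8 genes are in the longest class, where 78.4% of all genes have one. The 2 sodium-activated channel genes differed most. Kcnt2 had 20 entries and 308 reads at its end, while Kcnt1 had 4 entries and 4.26-fold with 28 reads. The small-conductance genes Kcnn2 and Kcnn3, which carry the afterhyperpolarisation, had 7.63-fold with 57 reads and 9.33-fold with 85 reads. Kcnn1 had 165 reads at its end but only 5.30-fold, since the local background there was 30.3 reads. Kcnma1, the large-conductance channel gene, had 24 entries in a territory of 877 kb and 8.09-fold with 70 reads at an end.

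Auxiliary and regulatory subunits were the most varied group. A gene-end entry was present in 11 of 17 (64.7%), near the 63.4% of all genes. Their median fold, 5.05, was the lowest of the functional groups. Among the Kcnip genes, Kcnip4 had 12.8-fold with 121 reads at its end, and Kcnip2 3.47-fold with 42 reads. Kcnip1 had 27 entries and none at its ends. Kcnab2, which binds the Kcna channels, had 9.36-fold with 127 reads. Kcnab1 had 2.36-fold with 14 reads at its end but the second-highest entry of all members, 32.2-fold with 243 reads (95% interval 213 to 276), at chr3:65178177-65178380, inside the gene and 199949 bp from the nearer end. Among partners of the large-conductance channel, Kcnmb4, the brain form, had 8.62-fold with 127 reads. Kcnmb3 had 2 entries, of 12 reads each. Kcne2, Kcne3 and Kcne4 had no gene-end entry, whereas Kcne1 had 7.70-fold with 64 reads and Kcne1l 5.05-fold with 41 reads. Kcnrg had 14 entries, all outside its span, and 6 when the reach was 50 kb or when each interval was counted once.

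By letter, the Kcnb, Kcnd, Kcng and Kcnf genes had median gene-end folds above the 7.99 of all genes (10.5, 9.24, 8.56 and 8.24), as did Kcnt (10.7). The medians of Kcnb, Kcnd and Kcnt rest on 2 genes each and that of Kcnf on 1. The 2 of Kcnt were at 17.1 and 4.26, and the 4 of Kcng ran from 2.13 to 8.71. All other letters with a gene-end entry lay below 7.99, down to 5.23 for Kcnk. Among letters with 3 or more genes, pooled density ran from 3.78 entries per 100 kb in Kcnm and 4.02 in Kcnn to 8.67 in Kcng and 7.83 in Kcnc. Long genes weigh most in a pooled density. The low value of Kcnn reflects Kcnn2, with 2.75 per 100 kb over 617 of the 871 kb. The median Kcnn gene had 9.33 per 100 kb, close to the 9.32 of Kcng. The highest median counts in letters with 3 or more genes were 17 in Kcni (the Kcnip genes), 16 in Kcnd and 15 in Kcnq. Among the same letters, every gene of Kcnc, Kcng, Kcnn, Kcnq and Kcns had a gene-end entry. The lowest share was in Kcne (2 of 5, 40.0%), beside 63.4% of all genes. Letters of 1 or 2 genes are single cases, and the genes of a letter are not replicates of each other.

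**Figure D4:**
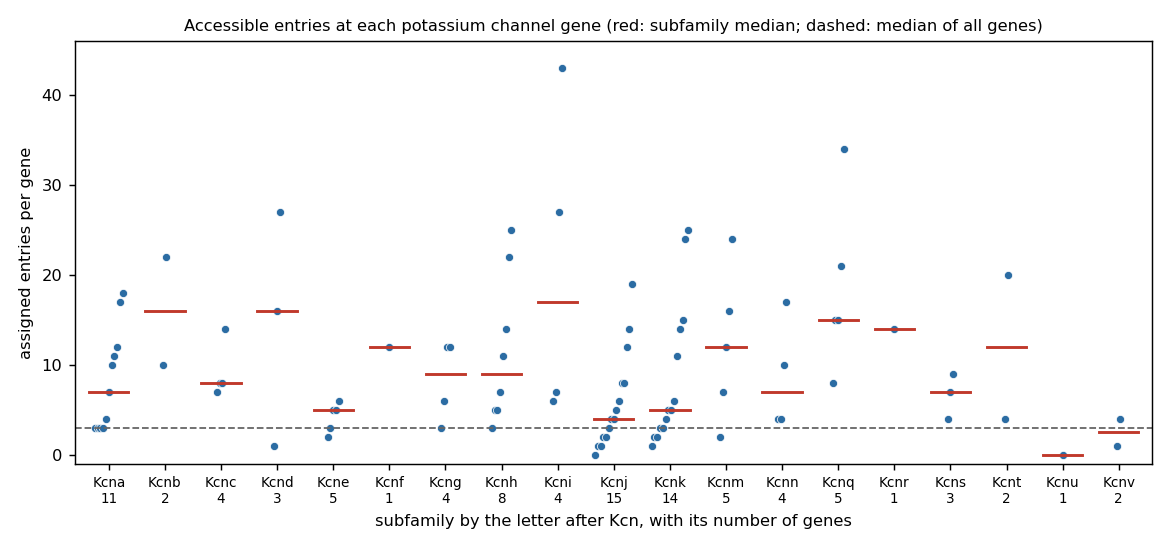
Assigned entries per gene (y axis) by the letter after Kcn (x axis, with the number of genes). Points are genes, red bars subfamily medians and the dashed line the median of all protein-coding genes, 3 entries. The Kcni and Kcnd medians are 17 and 16, and the Kcnj median is 4.

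Most entries of the family lay away from gene ends. Of 906 pairs, 504 (55.6%, exact Clopper-Pearson interval 52.3 to 58.9) were inside a member beyond 1 kb from its ends, 244 (26.9%) between genes, 145 (16.0%) at a gene end and 13 (1.43%) inside another gene. The shares over all genes were 46.4%, 29.4%, 21.4% and 2.89%. Entries inside members had a median of 3.08-fold and 22 reads, close to the 2.88-fold and 22 reads of all genes, whereas gene-end entries had 4.26-fold and 41 reads beside 5.50-fold and 64 reads. The highest entry of a gene lay at a gene end in 39 members, inside the gene in 29 and outside it in 24. The 4 highest of all, in Kcnh1, Kcnab1, Kcnj3 and Kcnq5, were not at gene ends. Exons and introns were not used here, so entries inside a gene are not divided further.

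The limit of 100 kb also decides some entries. The farthest entries kept were of Kcnma1 at 99.8 kb (12 reads) and Kcnj3 at 96.4 kb (18 reads), and the nearest left out were of Kcna4 at 102 kb (14 reads) and Kcnj6 at 102 kb (15 reads). Beyond the limit, 175 summits had a member as the gene with the nearest end.

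A start listed by RefSeq was found for 69 members, with 94 starts, beside 17492 genes with 21263 starts in all. A summit lay within 1 kb of a listed start in 57 of the 69 (82.6%), beside 66.5% of all genes with a listed start. Of the 24 members without a gene-end entry, 19 have a listed start and 9 had such a summit. These 9 are Kcna2, Kcne3, Kcnh1, Kcnip1, Kcnj16, Kcnj3, Kcnk1, Kcnk13 and Kcnk7, with folds from 1.86 to 11.1. A gene-end entry or a start summit was thus present in 79 of 94 members (84.0%), beside 68.6% of all genes, without regard to length. The table gives the outer bounds of a gene, and a start within those bounds can lie far from both ends.

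Where several starts are listed, which is so in 15 members, they often differed in accessibility. Of 3 starts of Kcnip1, the middle one had a summit of 9.90-fold and 64 reads at offset 40, and the outer ones had none within 1 kb. Of 4 starts of Kcnk2, 3 that lie close together shared a summit of 8.46-fold and 73 reads, and the outermost had none. Kcnab1 had 6.64-fold with 60 reads near its middle start, 2.36-fold with 14 reads at the outer start and none at the third. Of 3 starts of Kcnip3, the inner one had a summit of 6.23-fold with 67 reads and the outermost one of 6.08-fold with 53 reads, while the third, close to the outermost, had no summit in its own window. Both inner starts of Kcnip4 had summits, of 30 and 29 reads. In Kcnq5 the 124-read summit (8.82-fold) near the inner start is higher than the 40-read summit at the gene end.

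Within the 300 bases around a start (250 before and 50 from it), 35 of 94 member starts (37.2%) had a summit, beside 42.3% of all starts. These starts belong to 32 of the 69 members (46.4%), beside 45.9% of all genes with a listed start. Summits of members were spread more widely around the start. In the 500 bases from 500 to 999 after the start there were 0.309 summits per member start beside 0.173 for other genes, and from 1000 to 1499 there were 0.202 beside 0.0751. Before the start there were 0.404 beside 0.460 in the nearest 500 bases and 0.181 beside 0.111 in the next 500. Starts of 1 gene can share summits. With only the first start of each gene, the values in these steps after the start were 0.261 beside 0.179 and 0.174 beside 0.0753, and before it 0.420 beside 0.442 and 0.159 beside 0.0906, over 69 members and 17423 other genes.

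**Figure D5:**
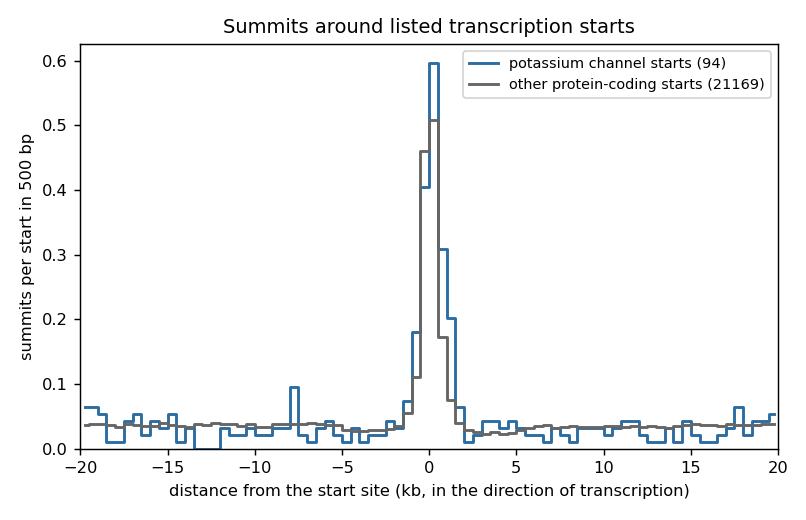
Summits per listed start in 500-bp steps (y axis) by distance from the start in kb in the direction of transcription (x axis), for 94 potassium channel starts (blue) and 21169 other starts (grey). Both peak in the 500 bases after the start, at 0.596 and 0.508. The blue line stays higher through the step from 1500 to 1999 bases downstream (0.0638 beside 0.0402).

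Member promoters with a summit in the window had more CG dinucleotides than those without. The median in the 250 bases before the start was 15 in the 35 starts with a summit and 5 in the 59 without, beside 18 and 4 over all starts. The GC box (GGGCGG, either strand) was in 68.6% of windows with a summit and 30.5% of those without, beside 66.4% and 25.2% over all starts. The same contrasts were thus present over all starts. The E-box form CAGCTG was in 23.4% of member windows (22 of 94), beside 12.1% of all windows. It was in 7 of the 35 member windows with a summit and 15 of the 59 without, so windows with a summit did not hold it more often. CANNTG, which includes CAGCTG, was in 67.0% of member windows beside 62.8%, and TAAT, the core of homeodomain sites, in 43.6% beside 49.4%. The left part of the RE1 element bound by the neuronal gene repressor REST (TTCAGCACC) was in 1 of 94, that of Kcnh6, beside 0.329% of all windows. The right part (GGACAGC) was in 10.6% beside 5.50%. GCGCATG and TGACGTCA were in 0 of 94 member windows, beside 3.97% and 1.92%. Both strands were searched. Starts of 1 gene can overlap, and a match is not a binding site.

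Genes of known partners outside the Kcn symbols are long, with a median of 44.3 kb. All 21 had an entry, and 17 (81.0%) had a gene-end entry, beside 63.4% of all genes and 78.4% of the longest class. The median was 10 entries beside 3 over all genes, but the pooled density was 4.88 per 100 kb beside 6.19. Dlg2, a scaffold that gathers Kcna channels, had 107 entries and 13.9-fold at an end, and Cntnap2, which anchors axonal channels, had 97, with an entry of 51.5-fold and 823 reads inside the gene. Dlg4, Lgi1, Lrrc38 and Lrrc52 had no gene-end entry.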

How the data were processed

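The members, gene groups, marker and partner lists were chosen with earlier results of these data known. Chromatin accessibility was measured by paired 75-nt ATAC-seq in 2 replicates, with 8 to 9 PCR cycles. Per the submitters' processing notes, reads were handled with the MACS2 2.2.7.1 peak caller, the BWA 0.7.1.7 aligner, SAMtools 1.7.2 and the trimmers Trim Galore and cutadapt 0.6.2, on mm10. Settings, duplicate handling, a correction for the Tn5 offset and the filter behind the list remain not given in the sources used here. Library totals are not known, and intervals cover counting error only.

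The pooled list holds a fold (the ratio of summit reads to local background), −log10 p-values and −log10 q-values, all deposited by the authors. Their deposited score column was left out. Reads and background were solved from the fold, taken as (reads + 1)/(background + 1), and the Poisson tail in the −log10 p. Whole reads (to 0.01) resulted for 99.99% of chromosomal entries. The list is permissive, with 17.7% of entries at a q-value of 0.05 or more.

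Summits were assigned to genes of the RefSeq table of GRCm38.p6, which gives no strand or exons, and starts, their strand and promoter sequences came from a RefSeq promoter table of the same assembly, matched by gene ID for 69 of 94 members. Named genes are those with most entries, highest density or highest folds, those with no entry, and genes with known neuronal or other roles, and further members were named after their values were seen. Some members enter the counts but are not reported here by name. Python 3.11.15, numpy 2.4.6, scipy 1.17.1 and pandas 2.3.3 were used, and the scripts were tested on simulated data. Protein sequences were not used here, so a planned count of pore signatures was not made. No test was run, since 1 pooled list of 1 group gives no replicate spread. Alternatives changed the significance, window, reach, gene set and counting of entries.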

Additional observations from a re-analysis of the deposited data

How the results depend on the processing

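Of the alternatives tried, 8 in all, none moved the number of members with an entry or with a gene-end entry by over 1.5 times. Members with an entry ranged from 82 (span of the gene only) to 92. Members with a gene-end entry ranged from 58 (a window of 500 bp, 61.7% beside 57.9% of all genes) to 70 (74.5% beside 63.4%). The difference from all genes was thus smaller with the window of 500 bp. Keeping the upper 50% of entries by significance left 460 gene-entry pairs in place of 906 and a median of 4 in place of 7, with 2 over all genes. Counting only summits inside gene spans gave a median of 4, with 1 over all genes. A q-value under 0.05 gave 746 pairs, and 1 entry per interval gave 682. Counts of single genes moved more: by over 1.5 times in 45 of 94 members with the span only, 16 with 1 entry per interval, 11 with q under 0.05 and 6 with a reach of 50 kb. With the upper 50% it was 65. That setting drops 50% of the whole list by design, so the fall in pairs and in most counts was built in. No paired analysis was possible because both replicates were pooled into 1 list, and for the same reason no replicate could be left out. Depth limits every absence: under 11 reads no entry is listed.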

Other observations

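Non-coding genes named after potassium channel genes share gene-end entries with members. Kcnd3os had an end entry of 8.40-fold and 99 reads and Kcnmb4os2 one of 8.62-fold and 127 reads, which are the same entries as the highest gene-end entries of Kcnd3 and Kcnmb4. Without strand or RNA these entries cannot be divided between the genes of a pair. Kcnmb4os1 had an end entry of 2.51-fold and 15 reads.

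Several members are neighbours, and their highest gene-end entries were set side by side. Kcnj9 and Kcnj10 are 11.9 kb apart, with 79 reads (an entry shared with Igsf8) and 140 reads. Kcna1 and Kcna6, 62.5 kb apart, had 89 and 53 reads. Kcnj16 and Kcnj2 (38.2 kb) had none and 196 reads, Kcne2 and Kcne1 (47.9 kb) none and 64 reads, and Kcna3 and Kcna2 (52.8 kb) 188 reads and none. Kcnk5 and Kcnk16 (79.6 kb) had 95 reads and none, and Kcnj5 and Kcnj1 (28.0 kb) 13 reads and none. Kcna2 and Kcna10 (68.1 kb) both had none. No test of these differences was made.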
